A study of Mus musculus with 12 samples.

Results

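Neurons hold many cytosolic calcium-binding proteins built from EF-hands, helix-loop-helix units that each can bind a calcium ion. The 8 genes described here are *Calb1*, *Calb2*, *Pvalb*, *Scgn*, *Hpca*, *Hpcal1*, *Ncald* and *Vsnl1*. They were chosen by symbol, with earlier results of these data known. Each symbol matched 1 Ensembl gene among the 17579 genes of the count table through the GENCODE names of GRCm38. The libraries come from 2 tissues, retina and striatum, of R6/1 mice, which carry exon 1 of the human huntingtin gene with a long CAG repeat as a transgene, and of wild-type (wt) littermates. All mice were untreated males on C57Bl/6 by the labels (C57BL/6 J in the study's methods), aged 13 to 15 weeks. Each genotype and tissue had 3 libraries, each made from RNA of 3 to 4 mice combined, and every spread and p-value below refers to such pools and not to single mice. By the study's methods, retinal and striatal RNA came from the same mice. The transgene of this line is driven by a human huntingtin promoter, beside intact mouse huntingtin, and is not limited to chosen cell types.

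The members fall into 2 kinds of protein. Calbindin (*Calb1*), calretinin (*Calb2*), parvalbumin (*Pvalb*) and secretagogin (*Scgn*) are buffers or buffer-like proteins that bind calcium in the cytosol, and antibodies to them are classical stains for neuron types. Hippocalcin (*Hpca*), hippocalcin-like 1 (*Hpcal1*), neurocalcin delta (*Ncald*) and visinin-like 1 (*Vsnl1*) are neuronal calcium sensors, most of which expose a fatty acid when calcium binds and then move to membranes. In the mouse retina calbindin marks horizontal cells and some amacrine cells, calretinin marks amacrine and ganglion cells, and secretagogin marks a set of cone bipolar cells. In the striatum calbindin is found in medium spiny neurons of the matrix, parvalbumin in fast-spiking interneurons, calretinin in a sparse class of interneurons, and hippocalcin in medium spiny neurons.

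On GRCm38 the buffer genes lie at chr4:15881264-15908064 on the plus strand (*Calb1*) and, on the minus strand, at chr8:110137502-110168210 (*Calb2*), chr15:78191114-78206400 (*Pvalb*) and chr13:23953456-23991214 (*Scgn*). The sensor genes lie at chr4:129111570-129122036 (*Hpca*), chr15:37366175-37792570 (*Ncald*) and chr12:11325242-11436613 (*Vsnl1*) on the minus strand, and at chr12:17690856-17791933 on the plus strand (*Hpcal1*). All 8 are protein-coding, and each has 1 value per library for the whole gene.

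RefSeq promoters on GRCm38.p6 were at hand for 5 of the 8 members, with 9 starts in all. The 3 shown are for *Hpca*, the member with the highest level per length in the wt striatum and lower in R6/1 mice in both tissues, and for *Scgn*, the member whose level differed most between tissues. Each run is the 250 bases before a start, read 5′ to 3′ on the minus strand, and capitals mark a GC box (GGGCGG, searched on both strands).

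Hpca, chr4:129121748-129121997: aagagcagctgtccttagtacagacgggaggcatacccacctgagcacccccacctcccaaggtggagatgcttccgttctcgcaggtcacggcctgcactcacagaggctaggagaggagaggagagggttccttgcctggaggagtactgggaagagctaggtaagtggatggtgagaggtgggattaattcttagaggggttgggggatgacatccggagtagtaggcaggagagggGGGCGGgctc
Hpca, chr4:129121304-129121553: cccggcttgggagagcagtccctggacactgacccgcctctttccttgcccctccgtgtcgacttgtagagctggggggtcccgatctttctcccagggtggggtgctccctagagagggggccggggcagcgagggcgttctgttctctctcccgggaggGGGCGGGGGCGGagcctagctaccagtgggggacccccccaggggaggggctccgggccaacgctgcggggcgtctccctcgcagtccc
Scgn, chr13:23991215-23991464: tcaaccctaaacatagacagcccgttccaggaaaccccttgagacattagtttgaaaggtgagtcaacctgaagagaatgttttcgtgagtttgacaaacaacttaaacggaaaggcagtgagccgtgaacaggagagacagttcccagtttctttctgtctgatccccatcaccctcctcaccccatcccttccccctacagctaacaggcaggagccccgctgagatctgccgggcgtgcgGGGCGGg

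The GC box occurred once in the first of these windows, 2 times in the second and once before *Scgn*. Over all 32851 promoter entries it was present in 32.7%. No TATA box (TATAAA, present in 12.4% of entries), cyclic AMP response element (TGACGTCA, 1.55%) or E-box (CACGTG, 6.02%) was found in the 3 windows on either strand. The third *Hpca* start, not shown, had 1 E-box and no GC box. These matches are a description of letters only.

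Levels are library-size-scaled counts with TMM factors (CPM), and a comparison of genes uses CPM per kb of exon. Total counts were 14070445 to 22432431 per library, and mitochondrially encoded genes took 11.3% to 12.9% of them in striata, 7.61% to 8.18% in wt retinas and 8.76% to 9.63% in R6/1 retinas. These retinal shares did not overlap, and their part in the retinal results was not tested. The tissue labels held: *Gnat1*, the transducin subunit of rods, was at 2605 to 11179 CPM in the retinal libraries and 0.239 to 0.675 CPM in the striatal ones, and *Ppp1r1b*, a marker of medium spiny neurons, was at 5.82 to 8.34 and 173 to 874 CPM. The striatal libraries numbered 2 stood apart from the others in both genotypes, as described with *Calb2* below. Genotypes were compared with the quasi-likelihood test of edgeR, adjusted p-values are Benjamini-Hochberg values over all genes tested, and the threshold for a call was 0.05. Fold changes are log2 values, R6/1 relative to wt unless stated. Their standard error (SE) was derived as the absolute log2 fold change divided by the square root of the F statistic of the edgeR test.

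**Figure D1:**
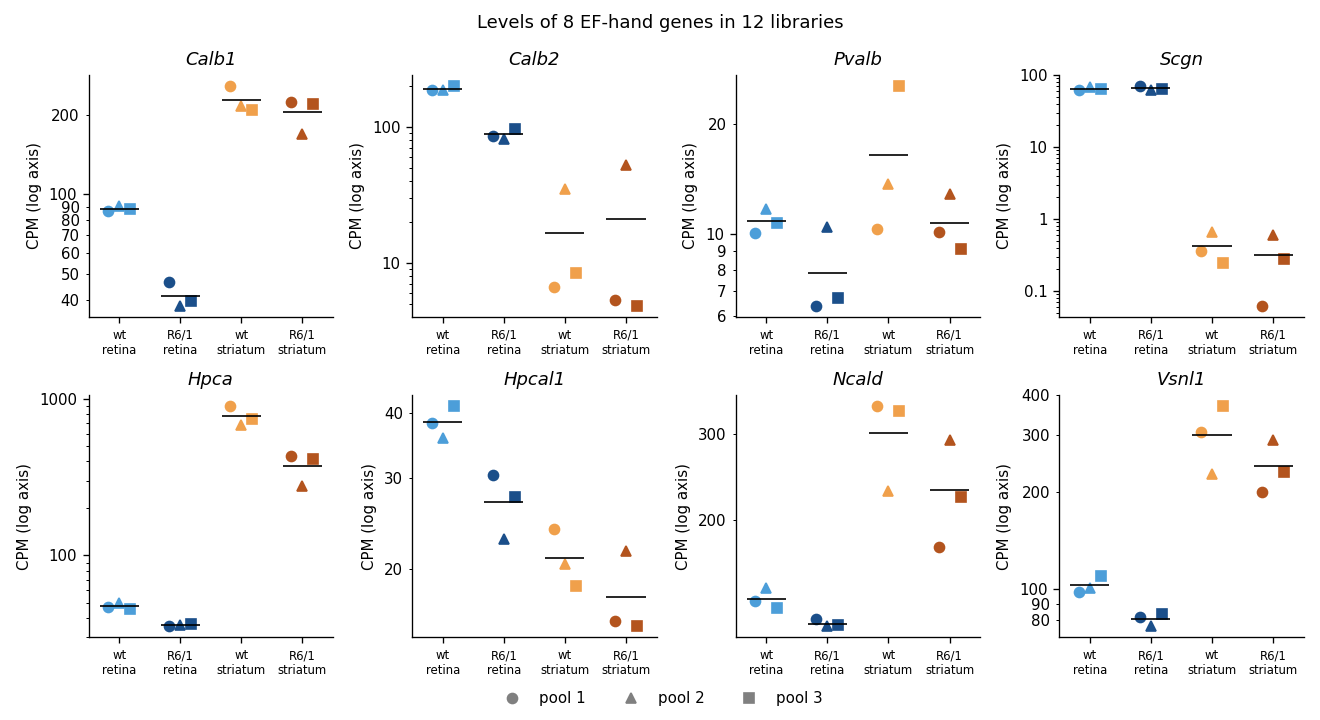
Level of each gene in CPM (log axis) in the 12 libraries, by genotype and tissue. Symbols are the pools numbered 1, 2 and 3, and the line is the mean of 3 pools. In the retina the R6/1 pools of *Calb1* (37.9 to 46.8 CPM) and *Calb2* (81.4 to 97.3 CPM) lay below all wt pools, and in the striatum the pools numbered 2 stood above the others in *Calb2*.

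In the retina 5 of the 8 members were lower in R6/1 mice and none was higher by edgeR, DESeq2 or limma-voom, nor was any higher at an unadjusted p under 0.05. Over all 16582 genes tested, 12.7% were called lower and 9.58% higher. Members and lists were chosen with earlier results of these data known, so setting them beside these shares is no independent test. *Calb1* and *Calb2* fell by about the same factor, and *Hpca*, *Hpcal1* and *Vsnl1* fell by less. A lower level in whole tissue can come from fewer cells of a type or from less RNA per cell, and these cannot be told apart.

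*Calb1* was at 86.4, 90.6 and 87.8 CPM in the 3 wt retinal pools and at 46.8, 37.9 and 39.7 CPM in the R6/1 pools. The groups did not overlap, and the highest R6/1 pool was far below the lowest wt pool. The log2 fold change was -1.06 (SE 0.08, adjusted p = 5.49e-08, n = 3 pools per genotype), a decrease to 0.480 of the wt level. *Calb2* was at 186, 186 and 201 CPM in wt and 85.8, 81.4 and 97.3 CPM in R6/1 retinas. Here too the groups were apart, at a log2 change of -1.08 (SE 0.07, adjusted p = 8.92e-09).

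*Hpca* is scarce in the retina beside the striatum. It was at 46.9, 49.4 and 45.5 CPM in wt and 35.2, 35.8 and 36.6 CPM in R6/1 retinas, with a narrow spread in each genotype and no overlap. The log2 fold change was -0.37 (SE 0.07, adjusted p = 0.000684). *Hpcal1*, a close relative of hippocalcin, was at 38.3, 35.9 and 41.3 CPM in wt and 30.4, 22.8 and 27.6 CPM in R6/1 retinas. Its pools varied more, but none of the R6/1 pools reached the wt range, and the log2 fold change was -0.49 (SE 0.10, adjusted p = 0.00205).

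*Vsnl1*, which is used in other settings as a marker of neuronal injury, was at 97.5, 100.4 and 109 CPM in wt and 82.0, 76.4 and 83.4 CPM in R6/1 retinas. The groups did not overlap, and the log2 fold change was -0.32 (SE 0.07, adjusted p = 0.00215). *Ncald* was at 136, 145 and 132 CPM in wt and 125, 121 and 122 CPM in R6/1 retinas. Its groups did not overlap either, but the change of -0.14 (log2, SE 0.06) did not pass the test (adjusted p = 0.115).

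The remaining buffer genes did not pass. *Pvalb* was at 10.1, 11.7 and 10.8 CPM in wt and 6.38, 10.5 and 6.70 CPM in R6/1 retinas. The R6/1 pool numbered 2 lay inside the wt range and the other two below it, and the log2 fold change was -0.43 (SE 0.17, adjusted p = 0.0868). Without that pool, picked here for its value, *Pvalb* would be called, at a log2 change of -0.70 (edgeR, adjusted p = 0.000855). Over all fits that left out 1 library its log2 change was -0.70 to -0.31, with an adjusted p of 0.000855 to 0.255. *Scgn* was at 62.4, 68.6 and 64.2 CPM in wt and 71.1, 61.4 and 64.9 CPM in R6/1 retinas. The groups overlapped, and the log2 fold change was 0.05 (SE 0.07, adjusted p = 0.692).

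The 5 calls in the retina held when any one library was left out. The highest adjusted p among those fits was 0.0187, for *Vsnl1*. In a single fit of all 12 libraries, which shares 1 estimate of the spread per gene between tissues, *Calb2* (adjusted p = 0.401), *Hpca* (0.107) and *Vsnl1* (0.198) were no longer called.

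**Figure D2:**
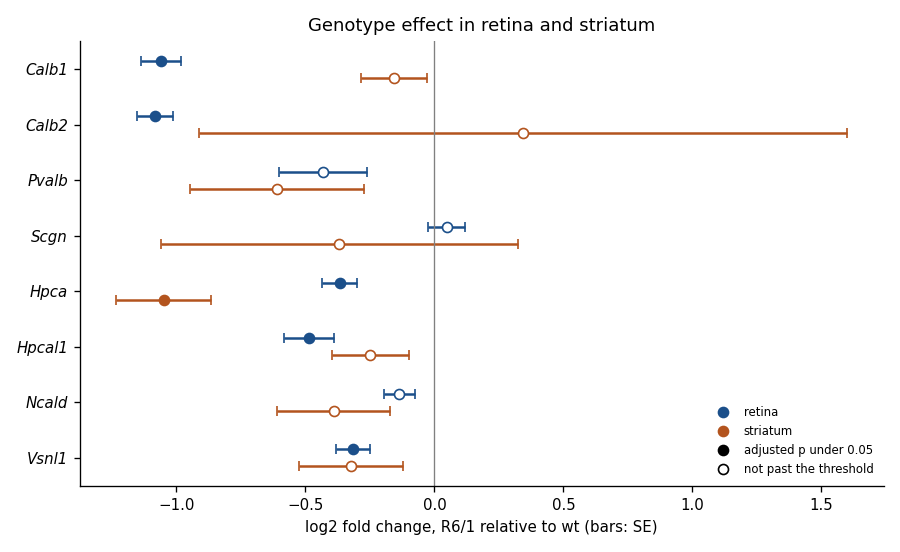
Log2 fold change of each gene, R6/1 relative to wt, in retina (blue) and striatum (brown), with bars of the SE derived from the edgeR test (3 pools per genotype). Filled points had an adjusted p under 0.05 (5 genes in the retina, *Hpca* in the striatum), and the bar of striatal *Calb2* is the widest, at an SE of 1.26.

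Other EF-hand genes were read from 3 lists. Among 9 further neuronal calcium sensor genes, 8 were lower in R6/1 retinas and none was higher, with a median log2 fold change of -0.68 against 0.01 over all genes tested. *Rcvrn* (recoverin, a photoreceptor sensor) was at -0.73 (SE 0.08, adjusted p = 8.94e-06), and *Guca1a*, an activator of the photoreceptor guanylate cyclase, was at -0.94 (SE 0.10, adjusted p = 2.58e-05). *Kcnip2*, a subunit of A-type potassium channels, was at -1.54 (SE 0.19, adjusted p = 1.41e-05), and *Kcnip3* at -0.54 (SE 0.07, adjusted p = 2.61e-05).

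Of 10 calmodulin and CaBP genes, 6 were lower (5 by DESeq2) and none was higher (median -0.66). They included *Cabp4*, a regulator of calcium channels at photoreceptor terminals, at a log2 change of -0.79 (SE 0.07, adjusted p = 4.57e-07), and *Cabp5* of bipolar cells at -0.71 (SE 0.07, adjusted p = 8.31e-07). Of 16 other cytosolic EF-hand genes tested, 3 were lower (2 by DESeq2) and 2 were higher (median 0.15). *Necab2*, a neuronal EF-hand protein, was lower (-0.68, SE 0.12, adjusted p = 0.000535), and *S100a6*, a member of the S100 family, was higher (1.09, SE 0.25, adjusted p = 0.0051).

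Markers of the cell types that carry these proteins moved in the same comparison. Of 5 horizontal cell markers 3 were lower and none was higher, with *Gja10*, a connexin of horizontal cells, at -1.33 (SE 0.24, adjusted p = 0.000601) and *Lhx1* at -0.70 (SE 0.18, adjusted p = 0.0101). *Onecut2*, the most abundant gene of this list with means of 15.97 CPM (wt) and 19.2 CPM (R6/1) in the retina, had the opposite sign and did not pass (0.30, SE 0.13, adjusted p = 0.11). The summed level of that list was 34.2 to 38.7 CPM in wt and 26.4 to 36.4 CPM in R6/1 retinas, so that the sums overlapped. Of 16 amacrine markers 10 were lower and none was higher, and the sum went from 1347 to 1432 CPM in wt to 914 to 1014 CPM in R6/1 retinas.

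Of 11 ganglion cell markers 7 were lower, with sums of 923 to 965 CPM in wt and 594 to 700 CPM in R6/1 retinas. All 9 cone bipolar markers were lower by edgeR, against 8 by DESeq2 and 8 by limma-voom. Their sum was 590 to 619 CPM in wt and 428 to 442 CPM in R6/1 retinas. *Scgn*, which marks some of these cells, was at 65.1 CPM and 65.8 CPM on average. Rod bipolar markers were lower in 6 of 7 genes by edgeR and DESeq2 and in 7 by limma-voom. The 10 rod markers were all lower. Of 8 cone markers 7 were lower and 1 was higher, and of 8 Müller glia markers 1 was lower and 2 were higher. The part of these changes in the levels of the 8 members was not tested. Scaled to library totals in place of TMM, *Calb1* was at -0.95 and *Calb2* at -0.97, both still called.

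**Figure D3:**
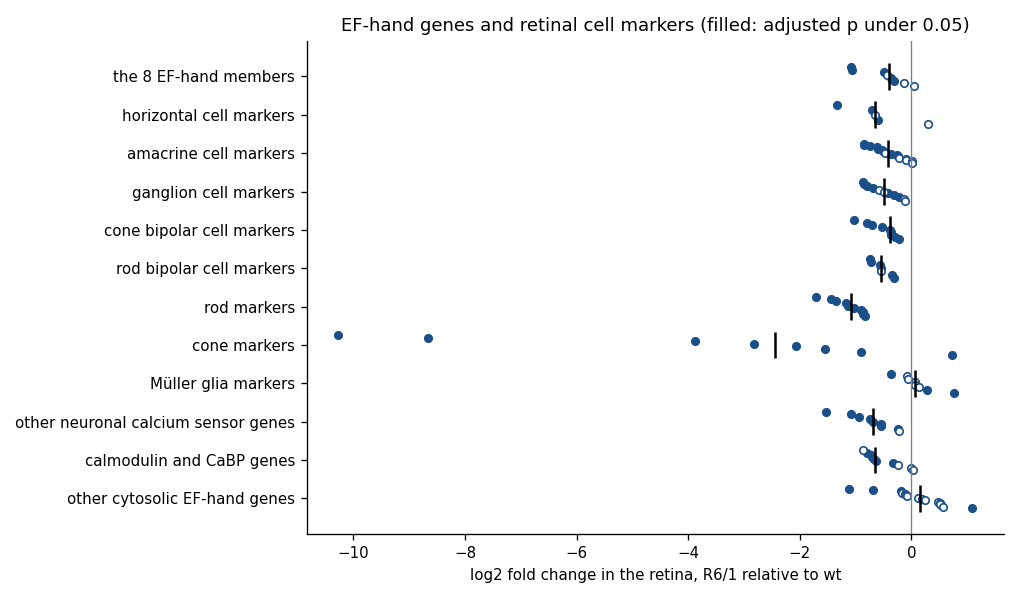
Log2 fold change in the retina, R6/1 relative to wt, of the 8 members and of the genes of 11 lists (1 point per gene, line at the median). Filled points had an adjusted p under 0.05. The medians of the calcium sensor list (-0.68) and the calmodulin list (-0.66) lay left of 0, and that of the other cytosolic EF-hand genes (0.15) right of it.

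In the striatum *Hpca* alone of the 8 members was called lower in R6/1 mice by edgeR, DESeq2 and limma-voom. None was called higher by any of these, nor at an unadjusted p under 0.05. Over all 16728 genes tested 1.32% were called lower and 0.132% higher. DESeq2 called 810 of them lower and 178 higher, and limma-voom 247 lower and 25 higher. An unadjusted edgeR p under 0.05 was reached by 3318 genes, counting both directions. Equal replicate numbers met the criterion for pairing in the striatum (correlations of 0.274, 0.329 and 0.257). The unequal pair of wt pool 1 and R6/1 pool 3 reached 0.240, however. Wt and R6/1 pools hold different mice, and the labels do not say what equal numbers share. With the number as a block, *Hpca* alone was again called among the members, and 7.11% of all genes were lower and 2.83% higher. *Hpca* was at 898, 685 and 740 CPM in wt and 433, 279 and 411 CPM in R6/1 striata. The lowest wt pool was above the highest R6/1 pool. The log2 fold change was -1.05 (SE 0.18, adjusted p = 0.0473), and with the block it was -1.07 (SE 0.09, adjusted p = 0.000103). Without the block it was not called without wt pool 1 (adjusted p = 0.192), wt pool 3 (0.169), R6/1 pool 1 (0.103) or R6/1 pool 3 (0.121), with log2 fold changes of -1.17 to -0.87 over all fits that left out 1 library.

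*Calb1* was at 258, 215 and 209 CPM in wt and 225, 169 and 219 CPM in R6/1 striata. The groups overlapped, and the log2 fold change was -0.16 (SE 0.13, adjusted p = 0.546). *Ncald* was at 341, 229 and 333 CPM in wt and 176, 292 and 223 CPM in R6/1 striata, at a log2 change of -0.39 (SE 0.22, adjusted p = 0.381). *Vsnl1* was at 307, 227 and 370 CPM in wt and 200, 291 and 232 CPM in R6/1 striata, at a log2 change of -0.32 (SE 0.20, adjusted p = 0.422). For both sensors the wt pool numbered 2 was the lowest of its genotype and the R6/1 pool numbered 2 the highest, and this made the groups overlap.

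*Pvalb* was at 10.3, 13.7 and 25.4 CPM in wt and 10.2, 12.9 and 9.13 CPM in R6/1 striata. The highest value was that of wt pool 3, the groups overlapped, and the log2 fold change was -0.61 (SE 0.34, adjusted p = 0.374). *Hpcal1* was at 23.9, 20.5 and 18.5 CPM in wt and 15.8, 21.6 and 15.4 CPM in R6/1 striata, at a log2 change of -0.25 (SE 0.15, adjusted p = 0.391). *Scgn* was nearly absent, with 6, 13 and 4 estimated counts in wt and 1, 14 and 5 in R6/1 striata, and its fold change was not informative at this depth (SE 0.69).

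*Calb2* varied between striatal pools more than any other member, with a coefficient of variation of 95.3% in wt and 131% in R6/1 mice. It was at 6.63, 35.01 and 8.41 CPM in wt and 5.39, 52.9 and 4.84 CPM in R6/1 striata. In each genotype the pool numbered 2 was the high one, 4.16 times the next highest wt pool and 9.81 times the next highest R6/1 pool. The log2 change of 0.34 (SE 1.26, adjusted p = 0.918) became -1.72 without R6/1 pool 2 and 1.52 without wt pool 2.

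Among 13877 genes ranked by how far both pools numbered 2 exceeded the other 4 striatal pools, *Calb2* was number 3, after *Lhx9* and *Zic4*, transcription factors of the developing and adult diencephalon. *Tcf7l2*, a thalamic transcription factor, was at 7.65, 27.7 and 9.58 CPM in wt and 9.98, 40.7 and 9.68 CPM in R6/1 striata. A list of 12 thalamic and diencephalic markers, written after these values were seen, summed to 212, 358 and 239 CPM in wt and 212, 499 and 213 CPM in R6/1 striata, and no gene of it was called between genotypes by edgeR, DESeq2 or limma-voom or at an unadjusted p under 0.05. *Slc17a6*, the vesicular glutamate transporter of thalamic neurons, was at 16.6, 55.3 and 22.7 CPM in wt and 10.7, 96.3 and 13.9 CPM in R6/1 striata. Since the list was written for pools 2, its order is not independent of them. High values in 1 pool of each genotype also widen the spread (SE 1.90 for *Lhx9* between striatal genotypes). For such genes the lack of calls says little. In 9 of its 12 genes both pools numbered 2 were above the other 4, and in *Rora*, *Ramp3* and *Tnnt1* they were not. *Rora*, the gene with the highest level of the list, was at 114, 113 and 139 CPM in wt and 117, 128 and 121 CPM in R6/1 striata. The part of these markers in the *Calb2* values was not tested.

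Markers of cortical and hippocampal excitatory neurons followed another order. Their sum over 10 genes was 703, 358 and 811 CPM in wt and 334, 456 and 448 CPM in R6/1 striata, and none of the 10 genes was called in either direction by edgeR, DESeq2 or limma-voom (median -0.50, 1 gene lower at an unadjusted p under 0.05). *Vsnl1*, *Ncald* and *Hpca* are expressed by these neurons too. Medium spiny neuron markers summed to 7095, 5134 and 5782 CPM in wt and 3178, 1747 and 3126 CPM in R6/1 striata. Among those 15 genes 1 was called lower (*Penk*, enkephalin precursor, -1.97, SE 0.22, adjusted p = 0.0165) by edgeR, 11 by DESeq2 and 7 by limma-voom, and the median was -1.15. The part of these cells and regions in the levels of the members was not tested.

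**Figure D4:**
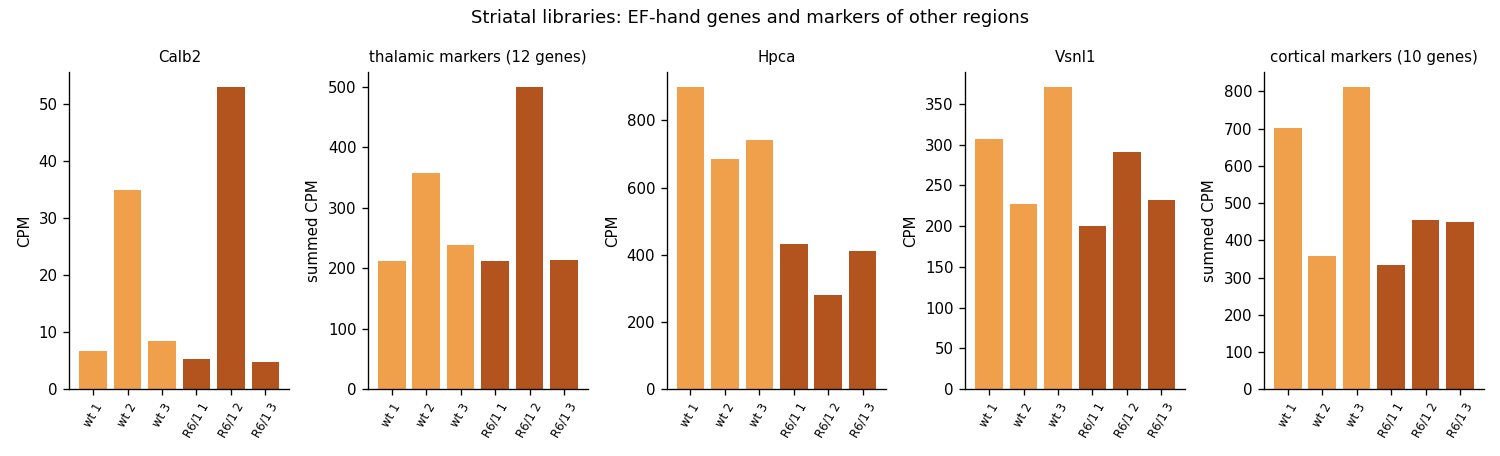
Level in CPM of *Calb2*, *Hpca* and *Vsnl1*, and summed CPM of 12 thalamic and 10 cortical markers, in the 6 striatal libraries (light, wt; dark, R6/1). *Calb2* and the thalamic sum (358 and 499 CPM) were high in the pools numbered 2 of both genotypes, whereas *Hpca* was lower in each R6/1 pool than in any wt pool.

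With both striatal pools numbered 2 left out, a choice made after seeing the data, 4 members were called lower and none higher, against 10.2% lower and 6.21% higher of 16176 genes. The wt pools 1 and 3 were compared with the R6/1 pools 1 and 3. The log2 change of *Hpca* was -0.96 (SE 0.09, adjusted p = 5.26e-05), that of *Ncald* -0.76 (SE 0.10, adjusted p = 0.00149) and that of *Vsnl1* -0.65 (SE 0.10, adjusted p = 0.00403). *Hpcal1* was also called (-0.44, SE 0.13, adjusted p = 0.0377). In *Ncald* and *Vsnl1* the pools left out were the lowest of wt and the highest of R6/1 striata. In *Hpcal1* the R6/1 pool left out was the highest of its genotype. These calls are therefore not independent of the choice. *Calb2* was at -0.56 (SE 0.18, adjusted p = 0.0564), and *Calb1* at -0.07 (SE 0.09, adjusted p = 0.664).

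Of the other EF-hand genes in the striatum, *Kcnip2* was called lower among 8 calcium sensors tested (-1.04, SE 0.16, adjusted p = 0.0323), against 2 by DESeq2 and 2 by limma-voom. None of 7 calmodulin and CaBP genes was called by edgeR or limma-voom, 2 were called lower by DESeq2, and 4 were lower at an unadjusted edgeR p under 0.05. *Tesc* (tescalcin) was called lower among 16 other cytosolic EF-hand genes (-1.26, SE 0.21, adjusted p = 0.045), where DESeq2 called 4 lower and limma-voom 1, and 6 were lower and 2 higher at an unadjusted edgeR p under 0.05. Of 15 striatal interneuron markers 3 were lower and none was higher, among them *Chat*, the enzyme of acetylcholine synthesis (-1.11, SE 0.15, adjusted p = 0.0165), and *Nos1*, neuronal nitric oxide synthase (-0.57, SE 0.09, adjusted p = 0.0203). For that list DESeq2 called 7 lower and limma-voom 3, 9 were lower at an unadjusted edgeR p under 0.05, and all 15 had a log2 change below 0. None of 10 astrocyte and oligodendrocyte markers was called by edgeR or limma-voom, 3 were called lower by DESeq2, and 4 were lower and 1 higher at an unadjusted edgeR p under 0.05. Beside these counts, DESeq2 called 810 of all 16728 genes lower, and 3318 had an unadjusted edgeR p under 0.05 in either direction.

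Whether the genotype effect differed between tissues was tested over all 12 libraries, as the retinal minus the striatal log2 fold change, treating the tissues of the same mice as separate libraries. Of the 8 members *Calb1* was called lower and none was called higher, against 4.86% lower and 3.38% higher of 15731 genes. The difference for *Calb1* was -0.94 (SE 0.16, adjusted p = 0.0036), which places its decrease in the retina beyond that in the striatum. In fits that left out 1 library it was -1.06 to -0.86, with an adjusted p of at most 0.0144. *Hpca* had the opposite sign, 0.65 (SE 0.21), and did not pass (adjusted p = 0.0775). It was the 1 member higher at an unadjusted p under 0.05, and DESeq2 called it (adjusted p = 0.0179) while limma-voom did not. For *Calb2* the difference was -1.48 with an SE of 1.22 (adjusted p = 0.523). The 5 other members were between -0.27 (*Hpcal1*) and 0.34 (*Scgn*), all with adjusted p-values over the threshold.

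Without the striatal pools numbered 2, the difference for *Calb2* was -0.56 (SE 0.18, adjusted p = 0.0462), for *Hpca* 0.56 (SE 0.11, adjusted p = 0.00268) and for *Ncald* 0.59 (SE 0.11, adjusted p = 0.00203). *Calb1* was called here too, at -1.02 (SE 0.13, adjusted p = 9.44e-05). That makes 2 members lower and 2 higher, where 7.24% and 6.54% of 15452 genes were called. These pools were left out after the data, with their high *Calb2* values, were seen, so no call of this fit is independent of that choice.

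The wt tissues differed in 7 of the 8 genes by edgeR. *Calb2*, *Scgn* and *Hpcal1* were higher in the retina, against 37.8% of 16864 genes, and *Calb1*, *Hpca*, *Ncald* and *Vsnl1* were higher in the striatum, against 38.5%. The log2 difference, retina relative to striatum, was 7.19 for *Scgn* (SE 0.17, adjusted p = 1.3e-11), 3.48 for *Calb2* (SE 0.69, adjusted p = 0.00862) and 0.88 for *Hpcal1* (SE 0.10, adjusted p = 1.08e-05). It was -4.04 for *Hpca* (SE 0.11, adjusted p = 4.78e-11). *Calb1* (-1.37, SE 0.09), *Vsnl1* (-1.56, SE 0.17) and *Ncald* (-1.13, SE 0.14) had adjusted p-values of 3.9e-08, 7.4e-05 and 0.000117. *Pvalb* was not called by edgeR (-0.60, SE 0.34, adjusted p = 0.153). With 1 library left out its edgeR adjusted p was 0.022 to 0.352. DESeq2 called 5 members lower, *Pvalb* among them, against 4 by edgeR and 4 by limma-voom. Among R6/1 libraries *Calb2* was no longer called between tissues (2.03, adjusted p = 0.149).

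Per kb of exon, *Calb2* had the highest level of the 8 in the wt retina, at 109 ± 4.83 CPM per kb (SD, n = 3 pools). It was followed by *Vsnl1* (52.4 ± 3.18), *Scgn* (40.2 ± 1.98), *Hpcal1* (22.7 ± 1.61), *Calb1* (18.2 ± 0.442), *Hpca* (16.2 ± 0.678), *Ncald* (16.04 ± 0.742) and *Pvalb* (10.4 ± 0.771). Only *Hpca* and *Ncald* overlapped among neighbours in that order. In the R6/1 retina *Calb2* (50.6 ± 4.71) was still first, while *Calb1* (8.55 ± 0.977) came after *Hpca* (12.3 ± 0.235) and overlapped *Pvalb* (7.55 ± 2.20).

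In the wt striatum *Hpca* led, at 265 ± 37.8 CPM per kb, ahead of *Vsnl1* (154 ± 36.6), *Calb1* (46.9 ± 5.47) and *Ncald* (35.1 ± 7.28). These 4 did not overlap. *Pvalb* (15.8 ± 7.61), *Hpcal1* (12.4 ± 1.60) and *Calb2* (9.57 ± 9.12) overlapped, and *Scgn* was last (0.261 ± 0.133). In the R6/1 striatum *Hpca* (128 ± 28.5) and *Vsnl1* (123 ± 23.6) overlapped.

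**Figure D5:**
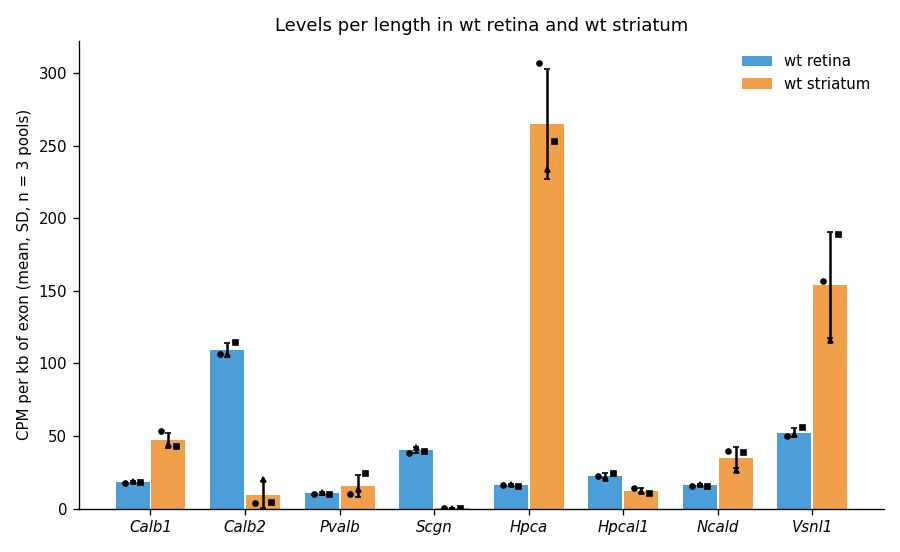
Mean level in CPM per kb of exon in wt retina and wt striatum, with SD bars and the 3 pools as points. *Calb2* was highest in the retina (109 CPM per kb) and *Hpca* in the striatum (265 CPM per kb).

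As a description, the genes whose log2 CPM ran most closely with each member over the 12 libraries were taken among 10315 genes with a mean of at least 10 CPM. The points share their libraries and fall into 2 tissues that differ in most members. For *Scgn* the first was *Gsg1* (Pearson r = 0.997), which is on the cone bipolar list. It was followed by *Tmem150c* (0.996) and *Zfyve27* (0.996), which are on no list. Between retinal genotypes *Gsg1* was called lower in R6/1 mice (-0.37, SE 0.09, edgeR adjusted p = 0.00572), whereas *Scgn* was not called. For *Hpca* the first 3 were *Arhgap33* (0.999), *Dlgap3* (0.999) and *Adcy5* (0.998), the last of which is on the medium spiny neuron list. For *Calb1* it was *Nanos1* (0.992), for *Vsnl1* *Nptxr* (0.991), for *Ncald* *Olfm1* (0.989) and for *Calb2* *Patj* (0.981). *Hpcal1* (*Zbtb8os*, 0.957) and *Pvalb* (*Rims3*, 0.886) had weaker partners.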

How the data were processed

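The authors pooled RNA of 3 to 4 mice per library, prepared stranded mRNA libraries and processed the reads with CASAVA, Trimmomatic and Salmon on GRCm38/mm10, whose versions are not given in the sources used here. The deposited table holds an estimated count per gene as a whole number, not normalized, with no statement of how transcripts were summed. Names came from GENCODE for 17527 of the 17579 genes.

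Counts were tested with edgeR 4.0.16 (R 4.3.3; quasi-likelihood, robust, TMM) for genes with at least 10 counts over the libraries compared, for the difference in each tissue. log2 CPM used a prior count of 2. Members are read from fits across all genes. The members and lists were chosen with earlier results of these data known. Named are all members, up to 4 genes per list by smallest p, and the gene most alike to each member. For *Scgn* and *Hpca* the 3 genes most alike are named. A few genes were chosen after their values were seen (*Lhx9*, *Zic4*, *Tcf7l2*, *Slc17a6*, *Rora*, *Ramp3*, *Tnnt1*, *Onecut2*, *Ppp1r1b*, *Gnat1*). A gene of the lists and a sum that rests on it are not reported here. *Tmem54*, a coding gene opposite *Hpca*, is not in the table used. The scripts were tested on simulated counts.

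Results were recomputed with DESeq2 1.42.0, with voom of limma 3.58.1, with other size factors and filters, non-robust spread, a replicate block, a single fit of 12 libraries, each library left out and an adjusted p under 0.01. Whether equal replicate numbers pair pools was checked by correlating deviations from group means over 10445 genes, with pairing taken where all 3 exceed 0.1. It was met between wt and R6/1 striata (0.274, 0.329 and 0.257) and between R6/1 retinas and striata (0.242, 0.119 and 0.179). It was not met between wt and R6/1 retinas (0.124, -0.094 and 0.051) nor between wt tissues (-0.026, 0.020 and 0.001). The criterion did not weigh unequal numbers. In the striata wt pool 1 and R6/1 pool 3 also correlated, at 0.240, and the other unequal pairs were at -0.389 to -0.042. Tables and figures used Python 3.11.15, numpy 2.4.6, pandas 2.3.3 and matplotlib 3.10.9.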

Additional observations from a re-analysis of the deposited data

Results flagged for a closer look

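The genotype effect on *Calb1* differed between tissues by the test of the difference itself, at -0.94 on the log2 scale for retina minus striatum (edgeR, adjusted p = 0.0036). All 3 R6/1 retinal pools were below all wt retinal pools, whereas striatal pools of the 2 genotypes overlapped.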

How the results depend on the processing

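Over all members and comparisons 596 values kept direction and side of the threshold, 19 reversed, 9 lost and 15 gained a call. The counts of members called between wt tissues stayed within 1.5 times at every setting. In the retina a single fit of 12 libraries called 2 members lower instead of 5. In the striatum 0 were lower at an adjusted p under 0.01, and 0 to 1 when 1 library was left out. Members with a higher difference went from 0 to 1 with DESeq2, with library totals and with DESeq2 with the replicate block, and were 0 to 1 with 1 library left out. Without both striatal libraries numbered 2, an alternative added after the data were seen, 4 were lower in the striatum (10.2% of all genes tested). There 2 had a lower and 2 a higher difference (7.24% and 6.54% of all genes tested). None of these calls is independent of that choice. With library totals in place of TMM the median log2 change over all tested genes was 0.13 (retina) and 0.12 (striatum), and the 5 retinal calls held. Why these values moved was not tested.

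Reversed values were all of changes that had not been called. For striatal *Calb2* they were -0.048 with limma-voom, -0.0099 with the replicate block, -0.12 with DESeq2 and block, and -0.56 without both libraries numbered 2. With 1 library left out the ranges were -0.017 to 0.095 for retinal *Scgn*, -1.72 to 1.52 for striatal *Calb2* and -1.27 to 0.14 for striatal *Scgn*. For the difference between tissues they were -2.67 to 0.63 (*Calb2*), -0.30 to 0.39 (*Pvalb*), -0.17 to 1.30 (*Scgn*) and -0.20 to 0.14 (*Vsnl1*, 0.30 without both libraries numbered 2). A group left with 2 libraries shared its estimate of the spread with the other group.

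The replicate block, which pairs pools of equal number, called 6 retinal members lower, adding *Pvalb* (-0.46, adjusted p = 0.0237 by edgeR), although numbers did not pair wt and R6/1 retinas. It changed no other call. Depth limits *Scgn* in the striatum, at 1 to 14 counts per library.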
